A study of Mus musculus with 8 samples.

Results

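The desmosomal cadherins and corneodesmosin are the adhesive proteins that hold keratinocytes together across the extracellular space. They were examined here through the transcripts of 10 genes, the desmogleins Dsg1a, Dsg1b, Dsg1c, Dsg2, Dsg3 and Dsg4, the desmocollins Dsc1, Dsc2 and Dsc3, and corneodesmosin, Cdsn. The genes were chosen by name from a table of 55416 genes. The rule used no measured value, but it was set with earlier results of these data known. All 10 had a row in the table, and all 10 were among the 13147 genes that passed the filter on low counts. The libraries came from the dorsal epidermis of P4 mice, with 4 from mice labelled WT, called control here, and 4 from mice with an epidermis-specific Rora knockout (RoraEKO). RoraEKO mice carried the Rora flox/flox alleles and a K14-Cre transgene, which acts in keratinocytes that use the keratin 14 promoter and in their descendants, and whether the controls carried the floxed alleles is not given in the labels. The epidermis was peeled from the skin and each library was made from polyA RNA of a separate sample, which the labels do not tie to named animals, so p-values measure the spread between these samples.

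Desmogleins and desmocollins are calcium-dependent cadherins that bind each other between neighbouring cells and are anchored inside the cell, through plakoglobin, plakophilins and desmoplakin, to keratin filaments. In the epidermis the isoforms are layered. Desmoglein 3 and desmocollin 3 are known from the lower layers, desmoglein 1 and desmocollin 1 from the upper layers, desmocollin 2 and desmoglein 2 from many epithelia, and desmoglein 4 from the upper epidermis and the hair shaft. Corneodesmosin is secreted by granular cells and is built into the desmosomes that persist in the stratum corneum, where kallikreins cut it as the dead cells are shed.

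Library totals ran from 17286903 to 26705533 counts. Levels are given as counts per 1000000 counts after TMM scaling (CPM). Rora itself was measured at 211.6 ± 66.6 CPM (SD, n = 4) in control and 196.2 ± 34.6 CPM (SD, n = 4) in RoraEKO libraries, with overlapping ranges, so its level over all exons did not separate the genotypes, and since the deleted exons cannot be read from gene-level counts it is no check of the labels. RoraEKO below means the libraries so labelled. Xist was at 415.8 and 527.4 CPM in control libraries C1 and C6 and at or below 0.0546 CPM in the other 6 libraries, RoraEKO libraries included. Xist is transcribed from the inactive X chromosome of female cells. The labels used here give no sex, and whatever moves with Xist is in part confounded with genotype, since no RoraEKO library had it. With Xist as a covariate the log2 fold changes were 0.09 for Dsg3, -0.13 for Dsg4 and -0.23 for Cdsn. Those of Dsg1b (1.0), Dsc1 (0.66), Dsg1a (0.27) and Dsg2 (-0.77) were larger in size than without the covariate. None of the 10 genes was called. The fold change of each of the 10 genes is therefore also given without C1 and C6. The first letter of the sample titles, whose meaning is not given in the labels, divided the libraries into A (control A1, RoraEKO A3), B (control B1, RoraEKO B4) and C (control C1 and C6, RoraEKO C2 and C3). C1 and C6 are the only control libraries of letter C. Without them, letter C is present among RoraEKO libraries only, so those fold changes cannot tell genotype from letter. The Xist covariate singles out the same libraries and has a like limit.

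The tissue label was checked against keratinocyte markers. Krt1 and Krt10, the keratins of spinous cells, were at 29965 ± 8117 and 23895 ± 4631 CPM (SD, n = 4) in control libraries, and Loricrin and Asprv1 of granular cells were at 4234 ± 411 and 4542 ± 884 CPM. Krt5 and Krt14, the keratins that define basal cells, were at 171.7 ± 79.6 and 131.7 ± 60.9 CPM. Per kilobase of exons, Krt1 and Krt10 were at 6787 ± 1838 and 11234 ± 2177 CPM in control libraries, and Krt5 and Krt14 were far lower at 77.7 ± 36.0 and 70.3 ± 32.5 CPM. No marker of these 3 layers was at 0 in all libraries. Hair follicle transcripts were present too, with Tchh and Krt71 of the inner root sheath at 8260 ± 5892 and 7934 ± 7446 CPM in control libraries. In bulk tissue, fewer cells of a type and less RNA per cell cannot be told apart.

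No desmosomal cadherin differed between genotypes past both cutoffs, nor did Cdsn. A gene was called where its adjusted p was under 0.05 and its fold over 1.5 in edgeR's quasi-likelihood test, which called 5.51% of all genes, 2.3% as higher and 3.22% as lower in RoraEKO epidermis. Of the 10 genes, 1 had an unadjusted p under 0.05, against 18.2% of all genes. DESeq2 and the likelihood ratio test of edgeR, which called 7.84% and 7.67% of all genes, also called 0 of the 10. The log2 fold changes of 7 genes were above 0 and those of 3 were below 0, with a median of 0.17 against -0.04 over all genes tested. The unadjusted 95% intervals covered folds from 0.71 to 1.43 for Dsg1a, 0.84 to 1.98 for Dsc1, 0.67 to 1.67 for Dsc2 and 0.63 to 1.27 for Dsc3.

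**Figure D1:**
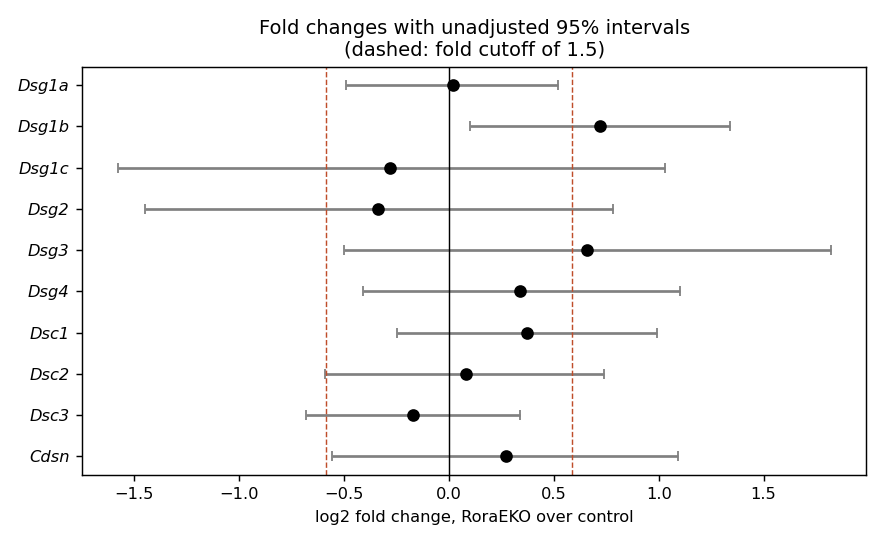
Log2 fold changes of the 10 genes, RoraEKO over control, with unadjusted 95% intervals from the quasi-likelihood fit over 4 libraries of each genotype (horizontal axis, log2 scale, with dashed lines at the fold cutoff of 1.5). Only the interval of Dsg1b, from 0.10 to 1.34, lies wholly on one side of 0, and those of Dsg1c, Dsg2 and Dsg3 are the widest.

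Cdsn (ENSMUSG00000039518, chromosome 17, 35863025 to 35868077 of GRCm39, plus strand) was the most abundant of the 10 genes. In control libraries A1, B1, C1 and C6 it was at 3592, 3076, 1284 and 1511 CPM, and in RoraEKO libraries A3, B4, C2 and C3 at 3184, 3711, 2645 and 1838 CPM. Among the genes tested, 66 had a higher control mean per kilobase of annotated exons. The libraries of letters A and B of either genotype were all above those of letter C, and the genotypes overlapped. The means were 2366 ± 1141 and 2845 ± 800 CPM (SD, n = 4), a log2 fold change of 0.27 with an unadjusted 95% interval of -0.56 to 1.09 (adjusted p = 0.802, edgeR quasi-likelihood test). Within the letters the difference of log2 CPM between genotypes was -0.17 in A, 0.27 in B and 0.66 in C. Without C1 and C6 the log2 fold change was -0.17 (adjusted p = 0.82).

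The promoter of Cdsn is shown because RORα, the product of Rora, binds DNA at AGGTCA half-sites, and because Cdsn was the only one of the 10 genes with an entry in the RefSeq promoter table used here (GRCm38.p6). The table holds 2 starts for it. The 250 bases before the start that matches the annotated gene were found once in GRCm39, at chr17:35862775-35863024 on the plus strand, and read as follows, in lower case throughout because no half-site is there to mark.
Cdsn promoter: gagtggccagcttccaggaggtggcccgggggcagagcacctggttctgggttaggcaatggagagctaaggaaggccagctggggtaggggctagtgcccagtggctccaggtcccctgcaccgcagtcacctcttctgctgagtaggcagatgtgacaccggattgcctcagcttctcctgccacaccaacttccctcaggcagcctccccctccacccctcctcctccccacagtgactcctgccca
Neither this sequence nor the 250 bases before the other start, 9031 bases further upstream, held AGGTCA on either strand. Of 32851 promoters in the table, 14.0% held it in the same window. The search says only that these letters are not in these windows.

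Levels can be compared between genes only per length, and were divided here by the kilobases of annotated exons of each gene. On this scale Cdsn was first in control libraries, at 883.4 ± 426.2 CPM per kilobase (SD, n = 4). Dsg1a was second at 163.9 ± 43.3, with a range over the 4 control libraries that lay below that of Cdsn and above that of Dsc3, while the highest control library of Dsc2 reached into it. The 3 desmocollins followed, with Dsc3 at 72.1 ± 21.8, Dsc2 at 68.5 ± 27.1 and Dsc1 at 50.9 ± 16.0 CPM per kilobase. Their ranges overlapped, so their order is not resolved, and Dsc2 and Dsc3 changed places when the longest transcript was used as the length. Dsg1b at 12.6 ± 3.34 and Dsg4 at 10.2 ± 4.93 CPM per kilobase also overlapped, below all libraries of the desmocollins and above all of Dsg3. Dsg3 was at 1.9 ± 1.21, Dsg2 at 0.404 ± 0.240 and Dsg1c at 0.133 ± 0.0767 CPM per kilobase, each overlapping the next in the order. In RoraEKO libraries the order was the same outside the desmocollins, where Dsc2 came before Dsc1 and Dsc3.

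**Figure D2:**
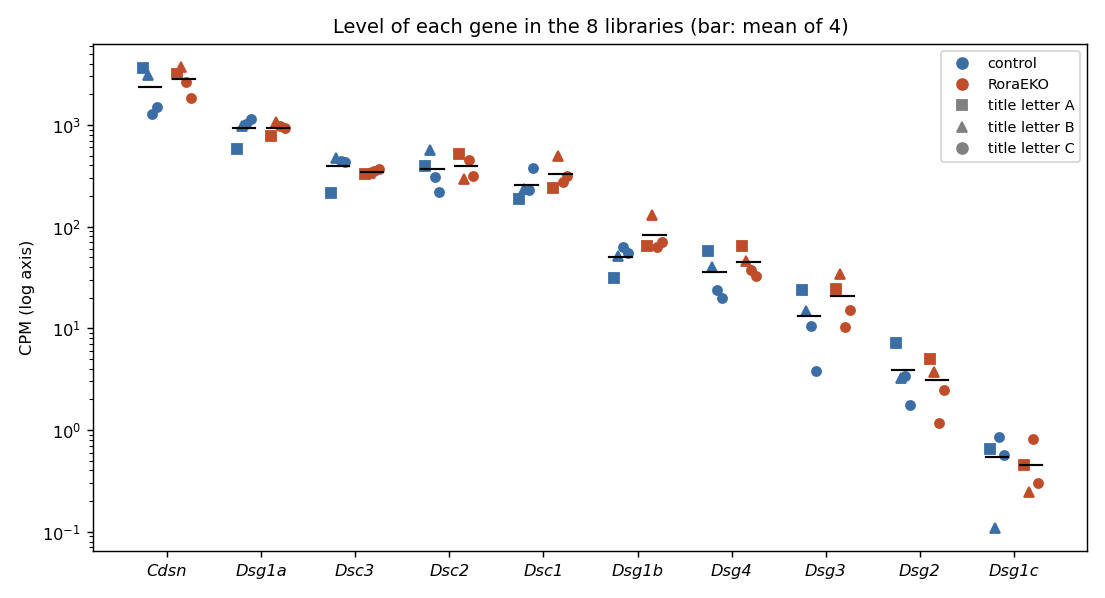
Level of each gene in every library in CPM (vertical log axis), in the order of the control level per kilobase, with control libraries in blue, RoraEKO libraries in red, the title letter as the marker shape and a bar at the mean of 4 libraries. The levels span from 0.109 CPM for Dsg1c to 3711 CPM for Cdsn, and Dsg1b alone shows 2 genotypes that do not overlap.

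Among the desmogleins, Dsg1a made up 85.8 ± 5.56% of the summed CPM per kilobase in control and 81.7 ± 4.1% in RoraEKO libraries (SD, n = 4). Dsg1b made up 6.62 ± 0.751% and 10.04 ± 2.53%, and Dsg4 made up 6.11 ± 4.6% and 6.53 ± 2.65%. Dsg3, the main target of autoantibodies in pemphigus vulgaris, accounted for 1.17 ± 1.03% and 1.47 ± 0.647%. The desmoglein transcripts of these samples were thus largely desmoglein 1, the target of autoantibodies in pemphigus foliaceus. Summed over the family, the level was 189.1 ± 40.3 CPM per kilobase in control and 202.8 ± 26.6 in RoraEKO libraries. The desmocollins were shared more evenly, with Dsc1, Dsc2 and Dsc3 at 26.8 ± 7.96%, 36.0 ± 12.6% and 37.2 ± 7.78% of their sum in control libraries and at 32.3 ± 9.93%, 35.8 ± 9.65% and 31.9 ± 3.11% in RoraEKO libraries. Their sum was 191.4 ± 36.1 and 201.9 ± 11.4 CPM per kilobase, close to the sum of the desmogleins in each genotype.

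**Figure D3:**
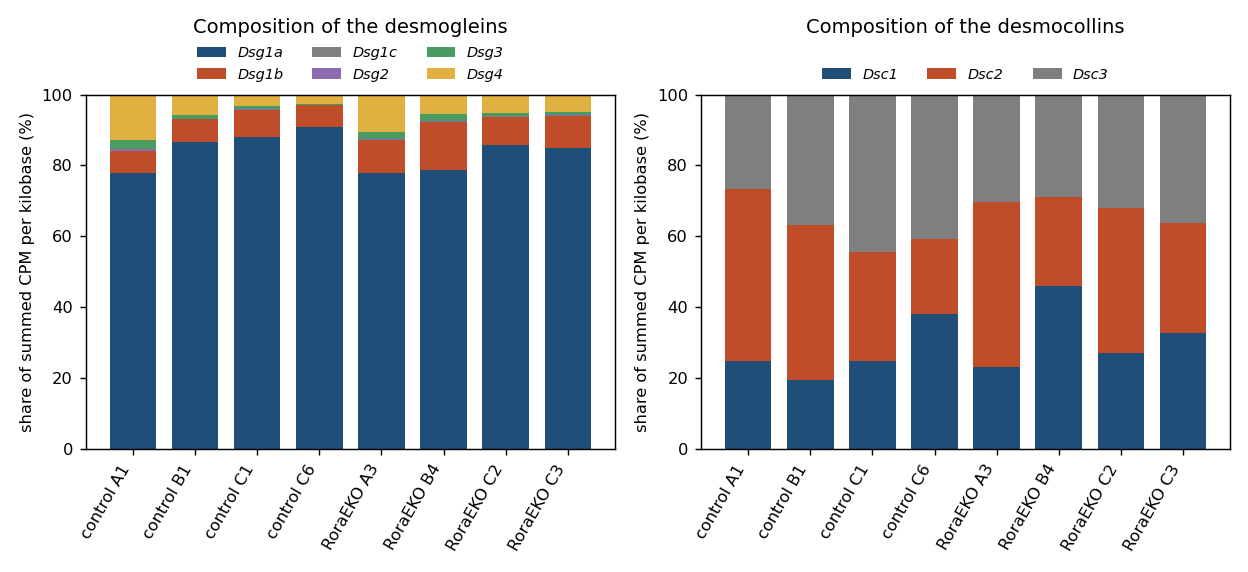
Share of each desmoglein (left) and each desmocollin (right) in the summed CPM per kilobase of its family, as a percentage, in the 8 libraries. Dsg1a fills 77.9% to 90.8% of the desmoglein bar, while no desmocollin passes 48.7%.

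The 9 cadherin genes form 1 cluster on chromosome 18 of GRCm39, from 20093987 to 20737581, with the desmocollins on the minus strand and the desmogleins on the plus strand. Dsg1a (ENSMUSG00000069441, 20443868 to 20476407) was measured at 576.4, 986.3, 1021 and 1144 CPM in control libraries A1, B1, C1 and C6. RoraEKO libraries A3, B4, C2 and C3 had 779.6, 1069, 980.2 and 938.9 CPM. The lowest library of each genotype was the one of letter A, and the ranges overlapped. The log2 fold change was 0.02, with an interval of -0.49 to 0.52 (adjusted p = 0.988, edgeR quasi-likelihood test), which corresponds to folds from 0.71 to 1.43. Without C1 and C6 it was 0.32 (adjusted p = 0.597).

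Dsg1b (ENSMUSG00000061928, 20509781 to 20543253), a second copy of the desmoglein 1 gene, was the only one of the 10 genes whose genotypes did not overlap. Control libraries A1, B1, C1 and C6 had 31.4, 51.5, 62.6 and 54.7 CPM, and RoraEKO libraries A3, B4, C2 and C3 had 65.1, 130.5, 63.7 and 70.6 CPM. The gap was small, since the lowest RoraEKO library, C2, lay next to the highest control library, C1, and B4 was well above all others. Over all genes tested, 12.9% had genotypes that did not overlap, so 1 of 10 genes is near this background. The means were 50.1 ± 13.3 and 82.5 ± 32.1 CPM (SD, n = 4), a fold change of 1.65 and a log2 fold change of 0.72 (unadjusted 95% interval 0.10 to 1.34). The adjusted p was 0.199 in the quasi-likelihood test of edgeR, which is not past the cutoff. RoraEKO libraries were higher within each letter, by a log2 difference of 1.05 in A, 1.34 in B and 0.20 in C. With the letter as a block the log2 fold change was 0.69 (adjusted p = 0.0714, edgeR quasi-likelihood test, which then called 7.6% of all genes), and without C1 and C6 it was 1.05 (adjusted p = 0.21).

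The copies of desmoglein 1 share much of their sequence, which matters for counts that RSEM divides between genes. The coding sequences of Dsg1a and Dsg1b, of 3174 and 3183 bases, were identical at 97.0% of aligned bases, and Dsg1c, of 2736 bases, matched them at 96.0% and 95.5%. Of the 50-base words of the longest transcript, 35.0% in Dsg1a, 48.3% in Dsg1b and 29.0% in Dsg1c were also present in another of the 10 genes. At 100 bases these shares were 24.6%, 32.8% and 13.9%. The other 7 genes shared no such word. Levels of single Dsg1 copies are uncertain to the extent that read pairs fell in shared stretches. Dsg1b received 5.17%, 4.96%, 5.78% and 4.56% of all Dsg1 counts in the control libraries and 7.7%, 10.9%, 6.1% and 6.99% in the RoraEKO libraries, in the same library order as above. The shares were higher in each RoraEKO library than in any control library, a description that was added after the values were seen and was not tested. They use the same Dsg1b counts as above and are no second observation. The gap was small, from 5.78% in control C1 to 6.1% in RoraEKO C2. Counted as 1 gene, the 3 copies had a log2 fold change of 0.06 (adjusted p = 0.941, edgeR quasi-likelihood test).

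Dsg1c (ENSMUSG00000034774, 20380397 to 20418088) was the lowest of the 10 genes, with 2 to 18 counts in a library. It was at 0.647, 0.109, 0.852 and 0.563 CPM in control and at 0.457, 0.247, 0.819 and 0.300 CPM in RoraEKO libraries. In control B1 it was below the floor of 3 counts, which corresponded to 0.113 to 0.196 CPM across libraries. Its interval was the widest, from -1.58 to 1.03 around a log2 fold change of -0.28 (adjusted p = 0.881, edgeR quasi-likelihood test), which corresponds to folds from 0.33 to 2.04. Without C1 and C6 the value was 0.25 (adjusted p = 0.897).

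Dsg4 (ENSMUSG00000001804, 20569232 to 20604878), whose loss gives the lanceolate hair phenotype in mice, was at 57.5, 40.2, 24.0 and 19.9 CPM in control libraries A1, B1, C1 and C6. In RoraEKO libraries A3, B4, C2 and C3 it was at 64.1, 45.6, 37.3 and 32.7 CPM. In both genotypes it was highest in letter A and lowest in letter C, and the genotypes overlapped. Within each letter the RoraEKO mean was above the control mean, by a log2 difference of 0.16 in A, 0.18 in B and 0.68 in C. The log2 fold change was 0.34 with an interval of -0.41 to 1.10 (adjusted p = 0.688, edgeR quasi-likelihood test), and 0.42 with the letter as a block (adjusted p = 0.0968). Without C1 and C6 it was -0.07 (adjusted p = 0.924), so its sign depended on those 2 libraries. That fit keeps letter C, where Dsg4 was lowest, in RoraEKO libraries only, so it cannot tell genotype from letter. The summed CPM of 17 hair shaft and inner root sheath genes was 60700, 29701, 13047 and 10849 in the control and 42601, 39674, 21025 and 21111 in the RoraEKO libraries, and was likewise highest in letter A and lowest in letter C within each genotype. The part of hair follicle content in the level of Dsg4 was not tested.

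Dsg3 (ENSMUSG00000056632, 20643331 to 20680516) was at 23.9, 14.9, 10.5 and 3.79 CPM in control and at 24.3, 34.1, 10.4 and 15.0 CPM in RoraEKO libraries. It had the largest ratio of the highest to the lowest library among the 10 genes, 9.01. The spread of its control libraries on the log2 scale was above that of 96% of all genes tested. The log2 fold change of 0.66 had an interval of -0.50 to 1.82 (adjusted p = 0.586, edgeR quasi-likelihood test), and it was 0.17 without C1 and C6 (adjusted p = 0.877). The summed CPM of 9 basal markers was 611.5, 435.0, 615.6 and 257.9 in control and 332.1, 1223, 278.6 and 390.8 in RoraEKO libraries. Control C6 had the lowest and RoraEKO B4 the highest value of both, but control C1 had a high basal sum with Dsg3 at 10.5 CPM and RoraEKO A3 a low one with Dsg3 at 24.3 CPM. Their part in the level of Dsg3 was not tested.

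Dsg2 (ENSMUSG00000044393, 20691074 to 20737581) was at 7.16, 3.22, 3.36 and 1.76 CPM in control and at 5.02, 3.70, 1.16 and 2.5 CPM in RoraEKO libraries. The 2 libraries of letter A were the highest. The log2 fold change was -0.34 with an interval of -1.45 to 0.78 (adjusted p = 0.819, edgeR quasi-likelihood test), and -0.70 without C1 and C6 (adjusted p = 0.558).

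The intervals of the desmocollins were narrower than those of Dsg1c, Dsg2, Dsg3 and Dsg4. Dsc1 (ENSMUSG00000044322, 20217241 to 20247928) was at 187.8, 234.4, 230.6 and 373.8 CPM in control libraries A1, B1, C1 and C6 and at 238.8, 499.9, 274.9 and 311.3 CPM in RoraEKO libraries A3, B4, C2 and C3. All RoraEKO libraries were above the 3 lower control libraries, and control C6 was above 3 RoraEKO libraries. The log2 fold change was 0.37, from -0.25 to 0.99 (adjusted p = 0.57, edgeR quasi-likelihood test), and 0.70 without C1 and C6 (adjusted p = 0.32).

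Dsc2 (ENSMUSG00000024331, 20163675 to 20192717) was at 397.2, 565.0, 305.4 and 221.3 CPM in control and at 512.6, 292.7, 448.0 and 316.1 CPM in RoraEKO libraries. The genotypes overlapped over most of their ranges, and the difference of log2 CPM was 0.37 in letter A, -0.95 in B and 0.53 in C. The log2 fold change was 0.08, from -0.59 to 0.74 (adjusted p = 0.943, edgeR quasi-likelihood test), and -0.25 without C1 and C6 (adjusted p = 0.695).

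Dsc3 (ENSMUSG00000059898, 20093987 to 20135408) was at 215.8, 473.8, 444.0 and 429.9 CPM in control and at 332.8, 339.5, 351.6 and 367.8 CPM in RoraEKO libraries. Control A1 was below every other library, and the remaining 3 control libraries were above all RoraEKO libraries. The means were 390.9 ± 118.2 and 347.9 ± 15.4 CPM (SD, n = 4), and the log2 fold change of -0.17 had an interval of -0.68 to 0.34 (adjusted p = 0.795, edgeR quasi-likelihood test). It was -0.37 without control A1 (adjusted p = 0.116) and 0.06 without C1 and C6 (adjusted p = 0.935), so its sign depended on the control libraries included.

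**Figure D4:**
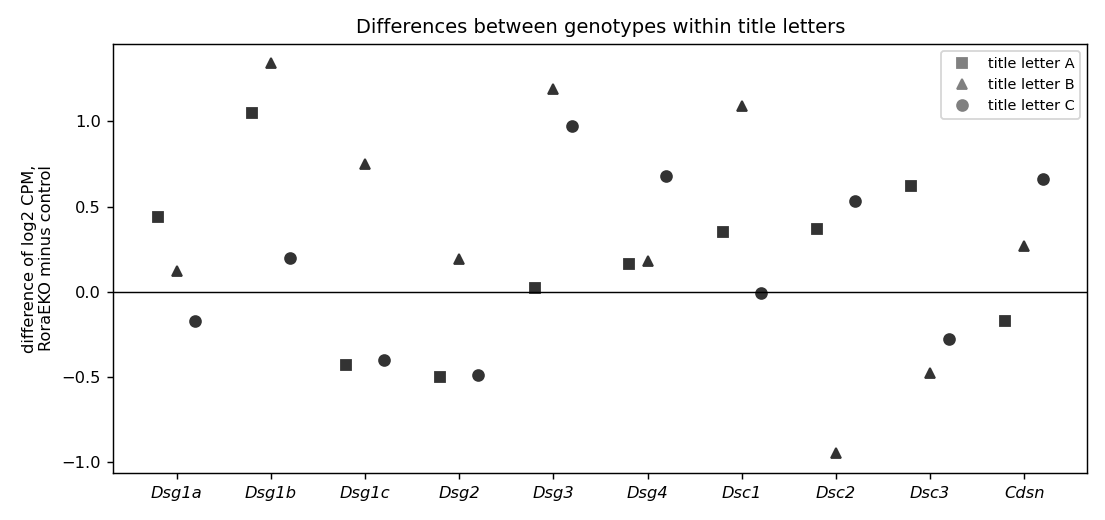
Difference of log2 CPM between RoraEKO and control libraries that share a title letter (vertical axis, log2 scale), for each of the 10 genes, with 1 library of each genotype in A and B and 2 of each in C. Only Dsg1b, Dsg3 and Dsg4 are above 0 in all 3 letters, and Dsc2 runs from -0.95 to 0.53.

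Of the 10 genes, 3 kept 1 direction across the letters A, B and C, against 42.8% of all genes tested. Ratios between the genes within a library do not depend on scaling between libraries, and 5 of them were compared with exact two-sided permutation tests, in which the smallest possible p with 4 against 4 libraries is 0.0286. The log2 ratio of summed Dsg1 to Dsg3, an upper-layer gene against a lower-layer gene, was 6.44 ± 1.5 in control and 5.74 ± 0.75 in RoraEKO libraries (SD, n = 4, exact permutation p = 0.457). The log2 ratio of Dsc1 to Dsc3 was -0.59 ± 0.45 and -0.13 ± 0.47 (exact permutation p = 0.286). For Dsc2 over Dsc3 the exact permutation p was 0.6, for Dsg4 over Dsg3 it was 0.4 and for Cdsn over summed Dsg1 it was 0.686. After adjustment over the 5 ratios each p was 0.686. In both layer ratios the genotypes overlapped.

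The genes with the most similar pattern over the 8 libraries were found by the root mean square difference of log2 CPM, each gene centred on its own mean. None of the 10 genes was among the nearest 2 of another. Nearest to Dsg1b were Mpp1, at a distance of 0.124 against a spread of Dsg1b around its own mean of 0.53, and Pcdhgc3 at 0.146. Dsg4 had Scarb1 at 0.126 and Bvht at 0.159, against a spread of 0.542. Nearest to Cdsn were Ccng2 and Lipe, both at 0.169 against 0.554. Dsg1a had Tlcd3a at 0.0749 and Rbm7 at 0.0764, against a spread of only 0.296. The desmocollins Dsc1, Dsc2 and Dsc3 had Alas1 at 0.174 and Nbeal2 at 0.176, Crisp1 at 0.165 and Trp53inp2 at 0.179, and Cr1l at 0.1 and Dck at 0.115, in that order. For Dsg3 the nearest genes were Krt90 at 0.252 and Sox15 at 0.264, and for Dsg2 they were Nhs at 0.156 and Ppp2r1b at 0.16. For Dsg1c they were Arhgef6 at 0.358 and Tlr13 at 0.386. With 13147 genes and 8 libraries such distances are descriptions only.

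Genes of the plaque that ties the cadherins to keratin were read from the same fit. Perp, a membrane protein of desmosomes, was at 3218 ± 389 and 3389 ± 294 CPM in control and RoraEKO libraries (SD, n = 4), and Dsp, which encodes desmoplakin, was at 2421 ± 288 and 2756 ± 280 CPM. Of 10 plaque genes tested 0 were called by edgeR, by DESeq2 or by the likelihood ratio test, 0 were called without C1 and C6, and 0 had an unadjusted p under 0.05. Of these genes, 9 had log2 fold changes above 0, with a median of 0.21 against -0.04 for all genes. Their summed CPM was 10386 to 11930 in control and 12206 to 15394 in RoraEKO libraries, which do not overlap. Taken singly, only 1 of the 10 genes, Jup, had genotypes that did not overlap, against 12.9% of all genes tested. The summed CPM of the 7 spinous genes moved in the same libraries, from 48891 to 74686 in control and from 89537 to 111559 in RoraEKO libraries, mostly through Krt1 and Krt10, and its part in the plaque sum was not tested. Neither sum was tested.

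Adherens junction genes did not pass the cutoffs either, with 0 of 11 called by the 3 tests, 1 at an unadjusted p under 0.05 and a median log2 fold change of 0.11. Cdh1, which encodes E-cadherin, was at 436.0 ± 57.1 and 352.0 ± 18.5 CPM (-0.31 on the log2 scale, adjusted p = 0.271 with edgeR), and Nectin4 was at 337.7 ± 15.5 and 365.5 ± 44.5 CPM. Of 13 transcription factors known to act on desmosomal cadherin genes or on late epidermal differentiation, 0 were called by the 3 tests and 1 had an unadjusted p under 0.05, with a median of 0.08. Klf4 was at 654.1 ± 44.2 and 788.4 ± 143.7 CPM, and Grhl1, which is known to activate Dsg1, was at 458.7 ± 38.4 and 394.2 ± 20.3 CPM. Among 10 genes of desmosome trafficking, calcium stores and kinases, 0 were called by the 3 tests and 0 had an unadjusted p under 0.05, with a median of 0.03. Atp2a2, the calcium pump mutated in Darier disease, was at 207.7 ± 21.4 and 214.4 ± 21.0 CPM, and Kif5b was at 67.4 ± 16.6 and 77.4 ± 10.7 CPM.

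Of the lists read out, those of epidermal proteases and of protease inhibitors held genes past the cutoffs. The lists were drawn up with earlier results known, so this is a description only. Which of their genes act on corneodesmosomes was not examined. Klk13 was at 47.9, 49.6, 42.4 and 53.9 CPM in control libraries A1, B1, C1 and C6 and at 97.9, 131.0, 105.2 and 91.5 CPM in RoraEKO libraries A3, B4, C2 and C3, a log2 fold change of 1.14 (SE 0.133, adjusted p = 0.0017, edgeR quasi-likelihood test). Klk9 rose from 109.0 ± 16.7 to 226.3 ± 62.7 CPM (SD, n = 4), a log2 fold change of 1.05 (SE 0.242, adjusted p = 0.0188). Both are kallikreins, named because they were called. Among the 16 proteases tested only these 2 had genotypes that did not overlap, against 12.9% of all genes tested. Of 16 proteases tested these 2 were higher in RoraEKO epidermis and 0 were lower, and 4 had an unadjusted p under 0.05, against 2.3% of all genes called higher and 18.2% with such a p. The median was 0.17. Without C1 and C6, 1 of them, Klk13, was called. Klk7, a known protease of corneodesmosin, was at 1366 ± 128 and 1560 ± 276 CPM (adjusted p = 0.668), and the cathepsin Ctsd was at 1298 ± 349 and 1183 ± 222 CPM.

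Of 9 protease inhibitors tested, 2 were higher and 0 lower, and 5 had an unadjusted p under 0.05, to be read against the same shares of all genes, with a median of 0.39. Wfdc12, a whey acidic protein of the family that inhibits serine proteases, was at 0.305, 0.984, 1.28 and 1.16 CPM in control and at 7.5, 3.74, 7.56 and 6.24 CPM in RoraEKO libraries (2.75 higher on the log2 scale, adjusted p = 0.00456 with edgeR). Spink12, a Kazal-type inhibitor, had 0 to 3 counts in each control library and 27 to 110 in each RoraEKO library, and was at least 18.4-fold higher against a floor of 3 counts per control library (adjusted p = 0.00243). Spink5, the inhibitor lost in Netherton syndrome, was at 627.1 ± 171.5 and 816.8 ± 174.3 CPM (adjusted p = 0.444), and Cst6 was at 404.3 ± 125.2 and 535.1 ± 87.1 CPM.

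**Figure D5:**
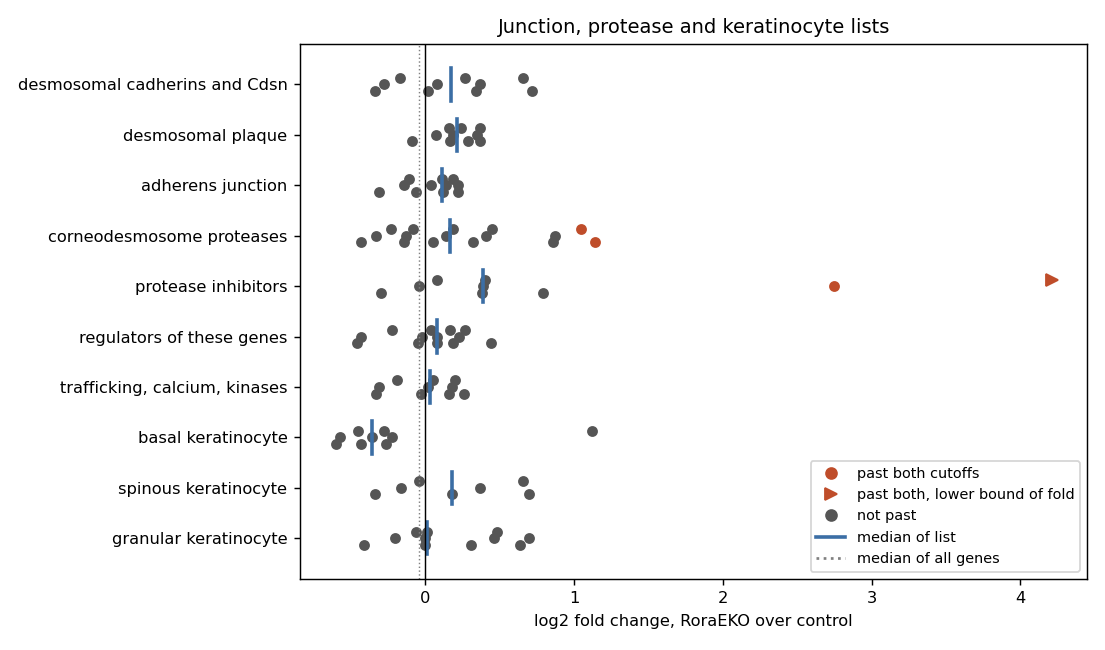
Log2 fold changes, RoraEKO over control, of the genes tested in each list (horizontal axis, log2 scale), with genes past both cutoffs in red, the median of each list as a blue bar and the median of all genes, -0.04, as a dotted line. Spink12 is drawn as a triangle at its lower bound, and the 4 red genes are all in the protease and inhibitor lists.

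Markers of keratinocyte layers and of other cells were read from the same fit. Of 9 basal, 7 spinous and 11 granular genes 0 were called by edgeR, with 1, 1 and 3 at an unadjusted p under 0.05 and medians of -0.36, 0.18 and 0.01. DESeq2 called 2 spinous genes, Krt1 and Krt10, and 2 granular genes, Tgm1 and Casp14, which are named because they were called. The likelihood ratio test called Krt10, Tgm1 and Casp14. For 17 hair shaft and inner root sheath, 4 outer root sheath and 7 sebocyte genes tested, 0 were called by any of the 3 tests and 0 had an unadjusted p under 0.05, with medians of 0.11, -0.05 and -0.09. Dermal fibroblast genes summed to at most 26.6 CPM, endothelial genes to at most 2.94 CPM and skeletal muscle genes to at most 4.0 CPM in a library, with 0 called by any of the 3 tests among those that passed the filter. Of 5 adipocyte genes only Fabp4 passed the filter and was not called (adjusted p = 0.976).

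Immune, blood and pigment cell markers were also not called by edgeR. The 5 T cell genes had a median of 0.43 and the 5 Langerhans cell genes one of -0.40, with 0 at an unadjusted p under 0.05 in each. The 5 erythroid genes had a median of 1.94, and 4 had an unadjusted p under 0.05, with a summed CPM of 47.8 to 334.0 in control and 124.9 to 1041 in RoraEKO libraries. All 6 melanocyte genes had log2 fold changes below 0, with a median of -0.90, and 4 had an unadjusted p under 0.05. DESeq2 and the likelihood ratio test each called 1 of them, Tyr, and in the other 3 lists 0. The melanocyte, T cell and Langerhans cell genes summed to at most 57.8, 56.8 and 278.1 CPM in a library, against at least 257.9 CPM for the basal, 48891 CPM for the spinous and 13491 CPM for the granular genes.

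The genes around the cadherin cluster were read out last. Within 500 kb of it the annotation holds 31 other genes, of which 15 were in the table and 4 passed the filter, and none of the 9 genes that lie inside the cluster passed. Of the 4, 1 was called as lower in RoraEKO epidermis, against 3.22% of all genes. It was Rnf125, named for that reason, at 0.952, 0.765, 0.663 and 1.35 CPM in control and at 0, 0, 0.193 and 0.25 CPM in RoraEKO libraries, from 0, 0, 4 and 5 counts (adjusted p = 0.045 with edgeR). Around Cdsn, 33 of 120 annotated genes were tested and 0 were called. On the opposite strand, annotated noncoding genes overlap Dsg1a and Dsg1c (Gm31237), Dsg1b (Gm58833), Dsg3 (Gm58904), Dsg2 (Gm16090) and Cdsn (Gm65939). The libraries were made with a stranded kit but the strand setting of the counting is not stated, so reads of such pairs might not be separated. Gm16090 was at 0 counts in all 8 libraries, and the other antisense genes were not analysed here.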

How the data were processed

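RNA of 8 epidermis samples from P4 mice was sequenced, 4 of each genotype. Per the submitters' processing notes and the paper's methods, the authors used bcl2fastq 2.20.0.422, Skewer for trimming, STAR 2.5.3a for mapping read pairs to GRCm39 and RSEM for estimating gene counts. The deposited table gives unscaled expected counts, with 55416 Ensembl genes as rows and 8 sample columns. Its header is shifted by 1 cell, and columns were matched to samples by their titles. The annotation release and the strand setting are not given in the sources used here. RSEM divides reads that match several genes, which bears on the Dsg1 copies.

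Expected counts were rounded, filtered with filterByExpr, scaled by TMM and compared in edgeR 4.0.16 by its quasi-likelihood test (R 4.3.3, no covariate, legacy form) with Benjamini-Hochberg adjustment over 13147 genes. SE values were computed from log2 CPM of the libraries with a prior count of 2. Unadjusted 95% intervals come from the F statistic. Ratios used counts plus 0.5. Symbols, coordinates and lengths came from GENCODE release M39 (54749 identifiers found), and coding sequences were aligned with Biopython 1.88. Alternatives were DESeq2 1.42.0, the likelihood ratio and non-legacy tests, RLE factors, library size alone, no filter, the title letter as a block, Xist as a covariate, leaving out C1 and C6 or each library, and the Dsg1 copies summed. The fit was tested on simulated data. Library totals set a floor of 3 counts at 0.113 to 0.196 CPM, which covers counting error only.

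The 10 genes and all lists were chosen with earlier results of these data known. Named were the 10 genes, from each list the genes past the cutoffs and the most abundant, and the 2 genes nearest each in pattern, though not every gene that this rule gives. Differences within letters and the Dsg1b share were added after seeing the data. No replicates of a genotype agreed within sampling noise.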

Additional observations from a re-analysis of the deposited data

Results flagged for a closer look

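In 20 groups of 4 libraries, 10 genes in each genotype, 2 had a library that stood apart from the other 3, by the gap to its neighbour over the range of the group (Dixon's 95% limit for 4 values). Chance gives about 1 such group in 20. In RoraEKO libraries Dsg1b was at 130.5 CPM in B4 against 63.7 to 70.6 CPM in the others, a gap of 0.897 of the range. In control libraries Dsc3 was at 215.8 CPM in A1 against 429.9 to 473.8 CPM in the others, a gap of 0.83 of the range. Without B4 the log2 fold change of Dsg1b was 0.41, and without A1 that of Dsc3 was -0.37, neither past the cutoffs in the quasi-likelihood test of edgeR.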

How the results depend on the processing

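The number of the 10 genes called stayed at 0 under all 19 alternatives. The 18 that refitted the table called 314 to 1031 genes in all. Dsg1b, Dsg3 and Dsc1 kept log2 fold changes above 0 under every alternative run (0.41 to 1.05, 0.09 to 1.12 and 0.10 to 0.70), and the other 7 genes changed sign under at least 1. Library size alone gave -0.03 for Dsg1a and -0.01 for Dsc2. Xist as a covariate gave 0.17 for Dsg1c, -0.13 for Dsg4, -0.30 for Dsc2, 0.02 for Dsc3 and -0.23 for Cdsn, and leaving out C1 and C6 gave 0.25, -0.07, -0.25, 0.06 and -0.17. With C1 and C6 left out, letter C was in RoraEKO libraries only. The causes were not tested. Leaving out 1 library moved Dsg1a between -0.16 (without control A1) and 0.15, with -0.05 without RoraEKO B4, Dsg1c between -0.67 and 0.00 (without control C1), Dsg2 between -0.59 and 0.15 (without control A1), with 0.01 without RoraEKO C2, and Dsc2 between -0.08 (without control C6) and 0.35, with -0.01 without control C1 and -0.03 without RoraEKO A3. Among genes that kept their sign on leaving out 1 library, Cdsn ran from 0.06 (without control C1), with 0.13 without control C6 and 0.11 without RoraEKO B4, to 0.54 (without control A1), Dsg4 from 0.18 (without RoraEKO A3 or control C6) to 0.68 (without control A1), Dsg3 from 0.32 (without RoraEKO B4) to 1.12 (without control A1), Dsc1 from 0.10 (without RoraEKO B4) to 0.63 (without control C6), Dsg1b from 0.41 (without RoraEKO B4) to 0.90 and Dsc3 from -0.37 (without control A1) to -0.06 (without control B1). Among the log2 ratios, leaving out C1 and C6 turned summed Dsg1 over Dsg3 to 0.35, Dsc2 over Dsc3 to -0.43 and Cdsn over summed Dsg1 to -0.63, and gave 0.48 for Dsc1 over Dsc3 and -0.15 for Dsg4 over Dsg3, with 2 control libraries left and no p able to pass the threshold. Leaving out 1 library, the difference between genotypes in summed Dsg1 over Dsg3 ran from -1.29 (without control A1) to -0.08 (without control C6), Dsc1 over Dsc3 from 0.23 (without RoraEKO B4) to 0.59, Dsg4 over Dsg3 from -0.59 (without RoraEKO C2) to -0.10 (without control C6), Dsc2 over Dsc3 from -0.06 (without control C6) to 0.55 and Cdsn over summed Dsg1 from -0.05 (without control C1), with -0.02 without control C6, to 0.72. With the longest transcript as length, 1 pair of genes changed order. Xist as a covariate left 1 protease called, Klk13, and DESeq2 called 2 spinous and 2 granular genes. The genotypes share no replicate numbers, and the title letter as a block changed no call among the 10 genes. Dsg1c rests on 2 to 18 counts in a library. Whether depth or the spread between libraries set the width of its interval was not tested.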
